A study of Sus scrofa with 44 samples.

Results

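Pig longissimus dorsi, the long muscle of the back, was compared between 60 and 40 days post coitus (E60 and E40), the interval in which secondary muscle fibres form. The comparison used 12 of the 44 samples of the series: at each stage 3 input libraries of rRNA-depleted RNA, and 3 libraries of RNA pulled down by an antibody to N6-methyladenosine (m6A). The groups differ in developmental stage alone as far as the labels go, and the labels give neither breed, sex nor treatment. They also do not say whether replicates came from separate fetuses or litters, so p-values measure the spread between these samples, which may be technical. A TPM file was used for each of the 6 input libraries, and 1 list of m6A peaks was used per stage, from the immunoprecipitated samples. A gene was tested when its mean over the 6 input libraries was at least 1 TPM, which left 13270 of 22427 genes. Each TPM file sums to 1e+06, which hides the sequencing depth, and levels carry no counting interval here. In the 6 input libraries 1 gene, ENSSSCG00000032395, held from 50.5% (E40 replicate 3) to 65.5% (E40 replicate 2) of that sum. The deposited TPM of every other gene depends on this share.

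Skeletal muscle is laid down in waves. Primary fibres form first by fusion of embryonic myoblasts, and secondary fibres then form along them from fetal myoblasts and come to make up most of the muscle. Fibres later take on slow or fast types, which differ in the isoforms of myosin, troponin and calcium pump they use. N6-methyladenosine is the commonest internal mark of messenger RNA. It is written by a methyltransferase complex built around METTL3 and METTL14, removed by FTO and ALKBH5, and bound by readers such as the YTH-domain proteins. The mark is known to be dense near stop codons and to occur in a short sequence context of which GGACT is a common form. In MeRIP-seq, fragments of RNA are pulled down with the antibody and a peak is a stretch of transcript with more fragments than the input.

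A few peaks from the lists of both stages are printed here as examples. Sites were read from the Sscrofa11.1 genome, 5′ to 3′ on the strand of the transcript, with 10 bases on each side where the peak allowed. Capitals mark the GGACT nearest the middle of the peak, or, where a peak had none, the nearest site that starts with A, G or T, goes on with A or G, then A and C, and ends with A, C or T. The first set comes from genes with a peak at E60 and none at E40 whose RNA was also higher at E60, and was chosen after its values were seen. All 6 were picked because they hold GGACT, which was in 27.9% of the 104 such peaks long enough to search, so this set says nothing of how common the motif is. SLN, LRRC14B, MYOZ1 and CKM are of the same class, and the peaks searched for them held none. The set holds TCAP (chr12:22652085-22652109, minus strand), a titin-binding protein of the Z-disc, RRAD (chr6:27601946-27601966, minus strand), a small GTPase that restrains calcium channels, and CCDC69 (chr16:71817639-71817663, plus strand). It also holds DYRK1B (chr6:48306367-48306391, minus strand), a kinase known to promote exit from the cell cycle in myoblasts, KITLG (chr5:94106053-94106077, plus strand), the ligand of the KIT receptor, and FOXD3 (chr6:149155365-149155389, minus strand), a transcription factor of the neural crest.
TCAP: tgcctgccctGGACTgggcccttcc
RRAD: tggctcGGACTctgggcctgg
CCDC69: tttctctccaGGACTtggcagagaa
DYRK1B: gaggccctccGGACTgctccccgcc
KITLG: gcatggcggaGGACTctattttaag
FOXD3: gggcgacgacGGACTggaggagaag

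The second set comes from genes with a peak at E40 and none at E60 whose RNA was lower at E60. It holds ZBTB16 (chr9:41834028-41834052, plus strand), a zinc-finger transcription factor, IGF2BP1 (chr12:25232619-25232643, plus strand), an RNA-binding protein of fetal tissue, SFRP1 (chr17:10439592-10439616, minus strand), a secreted Wnt antagonist, and WNT5A (chr13:37349046-37349070, minus strand), a Wnt ligand. ZBTB16 was picked for its GGACT and the other 3 peaks held none, so neither set can be read against the other. The sites of IGF2BP1 and SFRP1 were GGACA and that of WNT5A was GGACC.
ZBTB16: acgtccagaaGGACTgtgcaaaaac
IGF2BP1: agcagcaagtGGACAtccccctgcg
SFRP1: tccacaagtgGGACAagaaaaacaa
WNT5A: cccactcccaGGACCcacttattta

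Before any gene is described, the libraries need a word. E40 replicate 2 stood apart: a gene without a symbol, ENSSSCG00000032599, held 17.3% of its TPM against 0.435% to 1.19% in the other 5 libraries, and 10545 genes reached 1 TPM in it against 12886 to 13393. The median-ratio factor by which its values were divided was 0.467, against 1.19 to 1.55 in the others. The same library also held epidermal transcripts, a list written down after their values were seen: scaled KRT15 was at 261 and IVL at 133, where no other library exceeded 2.71 and 1.37. KRT10 was at 84.4 in it and at 2.54 to 5.78 elsewhere. Levels below are scaled TPM unless stated otherwise, list counts are given also without E40 replicate 2 where that changed them, and the part of these transcripts in any result was not tested. Spearman correlations across genes were 0.877 to 0.911 among the E40 libraries, 0.903 to 0.910 among those of E60 and 0.865 to 0.890 between the stages. Genes are not independent replicates.

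RNA levels moved mostly upward in number. On log2(scaled TPM + 1), 1009 of 13270 genes (7.6%) passed a limma adjusted p under 0.05, with 616 higher at E60 (4.64%) and 393 lower (2.96%). Of the 616, 170 rose at least 2-fold on that scale, against 62 of the 393 that fell. The 3 libraries of one stage lay wholly outside those of the other for 612 of the higher and 389 of the lower genes. Of all genes tested, 13.4% and 13% had such separation in each direction. Separation was read from the same values as the calls, so it is no separate check of them. Without E40 replicate 2, 993 of 13477 genes were called (7.37%), 595 higher (4.41%) and 398 lower (2.95%), and 740 of the 993 were among the 1009. The count was 643 without E40 replicate 1, 588 without E40 replicate 3, 540 without E60 replicate 2 and 617 without E60 replicate 3. It was 336 when only the 6 libraries of E40 and E60 entered the fit.

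The count differed with the scaling. With TPM as deposited 51 genes passed (0.384%), 39 higher (0.294%) and 12 lower (0.0904%), 49 of them shared with the 1009, and the median standard error of a change was 0.44 against 0.16 after scaling. As deposited, the median change of all genes was 0.26 on the log2 scale, and -0.17 when E40 replicate 2 was left out. After scaling it was -0.01. Of the genes called, 61.1% were higher after scaling, 76.5% as deposited and 45.8% as deposited without E40 replicate 2. The sign as deposited was the same for all 616 higher genes and for 387 of the 393 lower ones. At E50, the mean level lay between those of E40 and E60 for 88.1% of the genes called higher and 88.3% of those called lower. It did so for 41.1% of genes not called. Called genes have a wider gap by selection, with a median absolute log2 change of 0.76 (higher) and 0.58 (lower) against 0.18. The contrast with genes not called therefore cannot show a steady course. The E50 mean also includes E50 replicate 3, with a factor of 0.306 and 14.4% of its TPM in ENSSSCG00000032599.

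**Figure D1:**
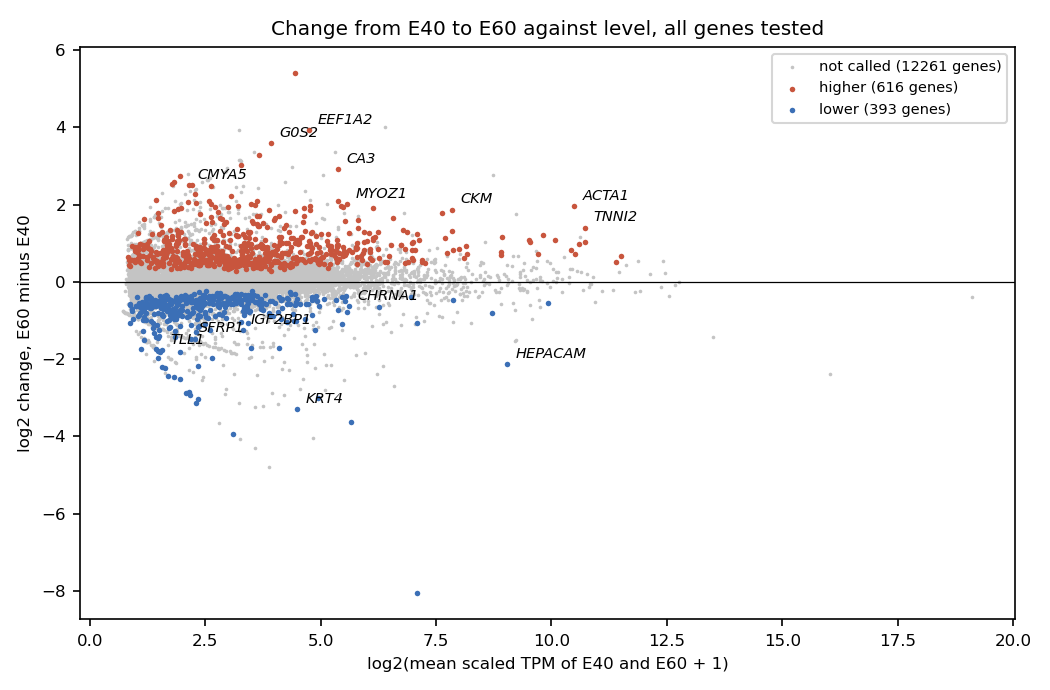
Each point is 1 of the genes tested, placed by its mean level at E40 and E60 (x, log2 of scaled TPM + 1) and its log2 change (y, E60 minus E40). Red points are the 616 genes called higher at E60, blue points the 393 called lower and grey points the rest, and the muscle genes ACTA1, TNNI2 and CKM stand among the most abundant of the genes that rose.

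The largest rise with a symbol was that of EEF1A2 (ENSSSCG00000040401, chromosome 17, 62517811 to 62526379), the isoform of translation elongation factor 1A used by mature muscle and neurons. It was at 1.17, 2.78 and 3.03 in the E40 libraries and at 43.1, 66.4 and 38.5 in those of E60. The stages did not overlap, and the log2 change was 3.93 (SE 0.28, limma adjusted p 3.66e-06). CA3 (chromosome 4, 51227485 to 51237861), the carbonic anhydrase of slow fibres, was at 13.3, 5.24 and 8.49 and then at 62.0, 89.7 and 63.8, 2.92 higher on the log2 scale (SE 0.24; limma adjusted p 1.24e-05). CMYA5 (chromosome 2, 88391104 to 88506336), a large protein of the costamere and Z-disc, was at most 0.602 in all 3 E40 libraries and at 5.05, 7.35 and 7.29 at E60 (log2 change 2.51, SE 0.23, limma adjusted p 2.79e-05). FOS, an immediate-early transcription factor, was at 7.21, 20.3 and 19.4 and then at 52.4, 88.6 and 55.9. FOS changed by 2.09 (SE 0.35, limma adjusted p 0.00221). All 4 kept their call without E40 replicate 2.

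Further large rises were those of PNPLA2, G0S2 and DEPP1, each listed at 0 in 2 of the 3 E40 libraries. At E33 they averaged 4.01 ± 1.19, 12.5 ± 3.35 and 12.8 ± 8.01 (SD). Their E60 levels were thus not a first appearance. The means at E40 were 0.434 ± 0.752, 2.84 ± 4.92 and 2.03 ± 3.51, and the difference from E33 was not tested. At E50, PNPLA2 was listed at 0 in all 3 libraries, while G0S2 and DEPP1 averaged 27.2 ± 38.5 and 14.5 ± 8.34. PNPLA2, the first lipase of triglyceride breakdown, was listed at 0 in 2 E40 libraries and at 1.30 in the third, and at 3.91, 8.56 and 7.94 at E60 (limma adjusted p 0.000611). G0S2, its inhibitor, was listed at 0 in 2 E40 libraries and at 8.52 in E40 replicate 2, and at 14.9, 32.2 and 30.2 at E60 (limma adjusted p 0.0384). DEPP1, a gene induced in fasting, was listed at 0 in 2 E40 libraries and at 6.09 in E40 replicate 3, and at 8.76, 18.1 and 19.2 at E60. Its limma adjusted p was 0.0177, and 0.0628 without E40 replicate 2. No fold is given for such genes, since an exact 0 in a TPM file can be a failed estimate.

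The other large rises were also low or listed at 0 at E40. CCIN, HPDL and PHF1 were listed at 0 in all 3 E40 libraries and lay between 2.22 and 6.93 in all 3 of E60. Their limma adjusted p was 0.000133, 0.0103 and 0.00171. PHF1, a partner of the Polycomb complex, and HPDL, a mitochondrial dioxygenase, were listed at 0 in every library of E33 and E50 as well. CCIN was not, and averaged 3.61 ± 1.42 (SD) at E33. LRRC14B was listed at 2.17e-06, 2.14e-06 and 1.29e-06 at E40 and at 5.22, 5.53 and 6.48 at E60 (limma adjusted p 0.0157). PNMT (chromosome 12, 22648396 to 22651520), the enzyme that makes adrenaline, was listed at 0, 1.32 and 1.52 and then at 6.12, 14.1 and 8.24 (limma adjusted p 0.00248). It lies next to TCAP (22651666 to 22652904 on the same chromosome), which also rose, and how reads near both genes were assigned is not given in the sources used here.

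Among the falls, KRT4 had the largest change of a gene with a symbol, and the size of that change differed with 1 library. It was at 6.46, 116 and 4.4 in the E40 libraries, the middle value being E40 replicate 2, and at 0.906, 0.868 and 0.416 at E60. The log2 change was -3.29 (limma adjusted p 0.0191) and -1.92 without that library (limma adjusted p 0.00146). HEPACAM, an adhesion protein of glial cells, was at 662, 1105 and 803 and then at 153, 221 and 208, log2 change -2.12, SE 0.48, with a limma adjusted p of 0.014. It stood again at 397 ± 77.7 and 1538 ± 385 (SD, n = 3 each) at E70 and E95, and E50 spread widely (713 ± 618), so its level followed no steady decline.

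The falls of TLL1 and STMN2 had the smallest adjusted p of the 12 largest. TLL1 (chromosome 8, 42855883 to 43094215), a metalloprotease that processes procollagen and frees growth factors, was at 3.72, 3.42 and 3.55 and then at 0.432, 0.191 and 0.420, log2 change -1.76, SE 0.15, with a limma adjusted p of 1.48e-05. STMN2, a microtubule regulator of growing axons, was at 2.15, 3.42 and 3.95 and then at 0.288, 0.160 and 0.242 (log2 change -1.74, SE 0.15, limma adjusted p 1.49e-05). NKAIN4, which binds the sodium pump, fell from between 15.2 and 18.5 to between 3.24 and 5.83 (log2 change -1.72). GJA5, the gap-junction protein connexin of arterial endothelium and of conducting heart muscle, fell from between 22.8 and 28.7 to between 5.95 and 7.88 (log2 change -1.71). CCDC3 and SFRP1 fell by 1.48 and 1.47 on the log2 scale, and SFRP1 was at 5.49, 6.71 and 4.90 and then at 1.16, 1.36 and 1.71. BCL11B and KREMEN2, at 3.07 and 2.02 in E40 replicate 1, were higher still in E40 replicate 2 at 8.63 and 7.79, and fell by 1.47 and 1.26 on the log2 scale without it. AIMP2 and OR51C1P lost their calls without that library (limma adjusted p 0.0919 and 0.0747).

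**Figure D2:**
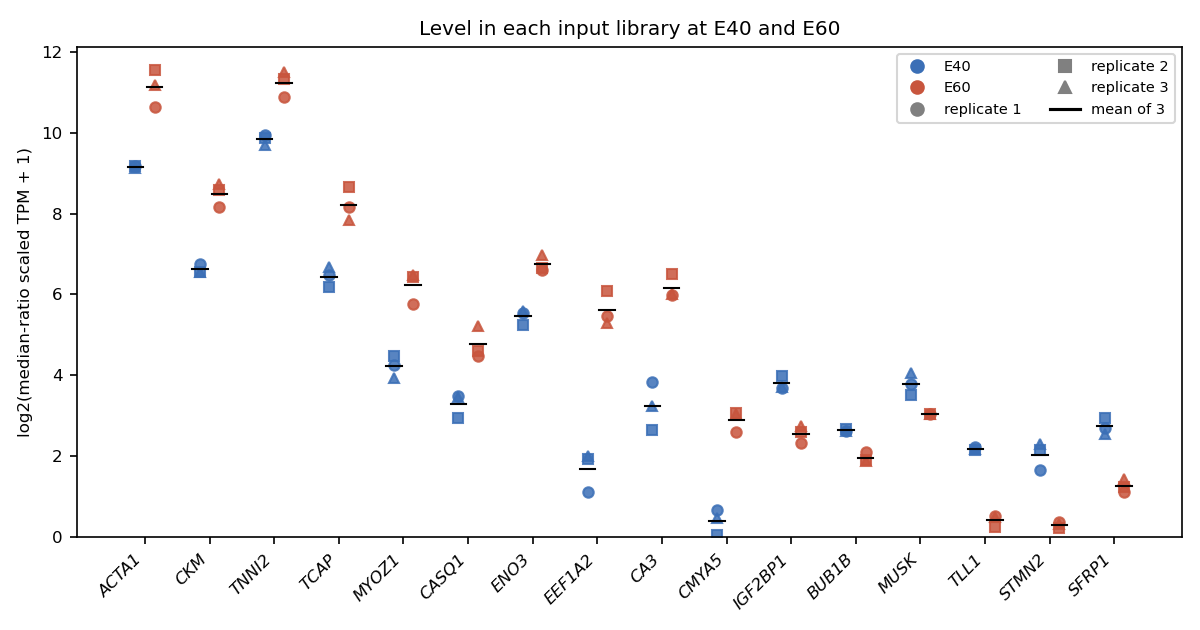
Points give the level of 16 genes (y, log2 of median-ratio scaled TPM + 1) in each of the 3 input libraries of E40 (blue) and E60 (red), with a bar at the mean of 3 and a marker shape for each replicate. In the muscle genes from ACTA1 to CMYA5 the red points all lie above the blue ones, and in the 6 genes from IGF2BP1 to SFRP1 they all lie below.

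The tested genes of the fast-fibre list rose as a block. The list also holds ACTA1, CKM and TPM1, which are not isoforms of fast fibres alone. All 9 tested members of that list passed higher, with a median log2 change of 1.24 against -0.01 over all genes, and all 9 did so without E40 replicate 2. As deposited 2 of the 9 passed, and their median was 1.59. Of all genes tested, 4.64% were called higher and 2.96% lower, the background for this and later list counts. ACTA1 (chromosome 14, 60412651 to 60415687), the actin of the adult thin filament, was at 578, 573 and 560 in the E40 libraries and at 1591, 2986 and 2336 in those of E60 (log2 change 1.97, SE 0.25, limma adjusted p 0.000263). CKM (chromosome 6, 51704021 to 51716935), muscle creatine kinase, was at 107, 93.3 and 92.5 and then at 284, 384 and 423 (log2 change 1.87, SE 0.19, limma adjusted p 6.72e-05). The fast troponin subunits moved alike: TNNI2 by 1.40, TNNT3 by 1.09 and TNNC2 by 1.07 on the log2 scale.

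ATP2A1, the calcium pump of fast fibres, was at 18.5, 16.7 and 16.5 and then at 33.8, 43.8 and 43.9 (log2 change 1.18, SE 0.13, limma adjusted p 0.000142). TPM1, an alpha-tropomyosin, rose by 1.24 and MYL1, the fast alkali light chain, by 0.81. ACTN3, the actinin of fast Z-discs, was low throughout: it was listed at 0, 0.166 and 0.879 at E40 and was at 3.33, 1.73 and 4.75 at E60. MYBPC2, the fast myosin-binding protein, and PVALB, a calcium buffer of fast fibres, averaged under 1 TPM and were not tested. MYH1, MYH2, MYH4 and MYLPF were not matched by symbol, so the adult fast myosin heavy chains were not analysed here.

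The scaffold that holds the filaments rose too, in 14 of 17 tested members of the Z-disc and M-band list, with a median log2 change of 0.67. Without E40 replicate 2 the number was 9. MYOZ1, which anchors calcineurin at the Z-disc of fast fibres, was at 18.1, 21.2 and 14.2 and then at 53.0, 85.8 and 87.7, log2 change 2.00, SE 0.24, with a limma adjusted p of 0.000225. TCAP was at 87.6, 72.0 and 101 and then at 287, 403 and 229 (log2 change 1.78, SE 0.25, limma adjusted p 0.000611). DES, the intermediate filament desmin, rose by 1.16, MYOM2, a myomesin of the M-band, by 1.04, FLNC, muscle filamin, by 0.72 and NEB, nebulin, by 0.56. ACTN2 and MYOM3, with changes of 0.50 and 0.46, lost their calls without E40 replicate 2. MYOM1 had a change of -0.05 (0.29 as deposited, limma adjusted p 0.84 after scaling), with 34.9 to 44.4 at E40 and 35.7 to 43.1 at E60.

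Genes of calcium release and storage followed, with 7 of 12 tested members higher, none lower and a median of 0.62. Without E40 replicate 2, 8 were higher, HRC being the one added. JSRP1, a protein of the junction between T-tubule and store, was at 35.7, 26.4 and 18.7 and then at 56.9, 92.0 and 102 (log2 change 1.61, SE 0.30, limma adjusted p 0.00424). CASQ1, the calcium-binding protein of the fast-fibre store, was at 10.3, 6.69 and 10.1 and then at 21.2, 23.3 and 36.3 (log2 change 1.46, SE 0.22, limma adjusted p 0.00102). CACNG1 and CACNA1S, subunits of the voltage sensor, rose by 1.30 and 0.66, SYPL2 of the triad membrane by 1.16 and JPH1, which ties T-tubule to store, by 0.46. ATP2A2, the calcium pump of slow fibres and heart, had a change of 0.10 (limma adjusted p 0.654), with values of 57.8 to 63.1 and 57.2 to 74.9 that overlapped. That fast and slow pumps differed in their change was not tested.

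Embryonic and slow isoforms rose in part. Of 11 tested, 3 rose (MYBPC1, MYH8 and ACTC1), none fell and the median was 0.54, and all 11 changes were above 0. MYH8, the perinatal myosin heavy chain, was at 1028, 1145 and 910 and then at 1515, 2117 and 2575 (log2 change 0.98, SE 0.19, limma adjusted p 0.00636). MYH3, the embryonic heavy chain, was at 2934, 3357 and 2895 and then at 3571, 5107 and 4759 (log2 change 0.54, SE 0.18, limma adjusted p 0.0914). MYBPC1, the slow myosin-binding protein, was at 95.0, 78.3 and 95.0 and then at 164, 219 and 190 (log2 change 1.08, SE 0.13, limma adjusted p 0.000208). ACTC1, the actin of heart and fetal muscle, rose by 0.50 and lost its call without E40 replicate 2. MYH6, the alpha heavy chain of the heart, was at 122.7 to 136.1 and then at 249, 469 and 270 (log2 change 1.30, limma adjusted p 0.00339), while the cardiac genes NKX2-5 and TBX5 were at or near 0 in all 6 libraries. Myosin heavy chains are paralogs, and how reads shared between them were assigned is not given in the sources used here.

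**Figure D3:**
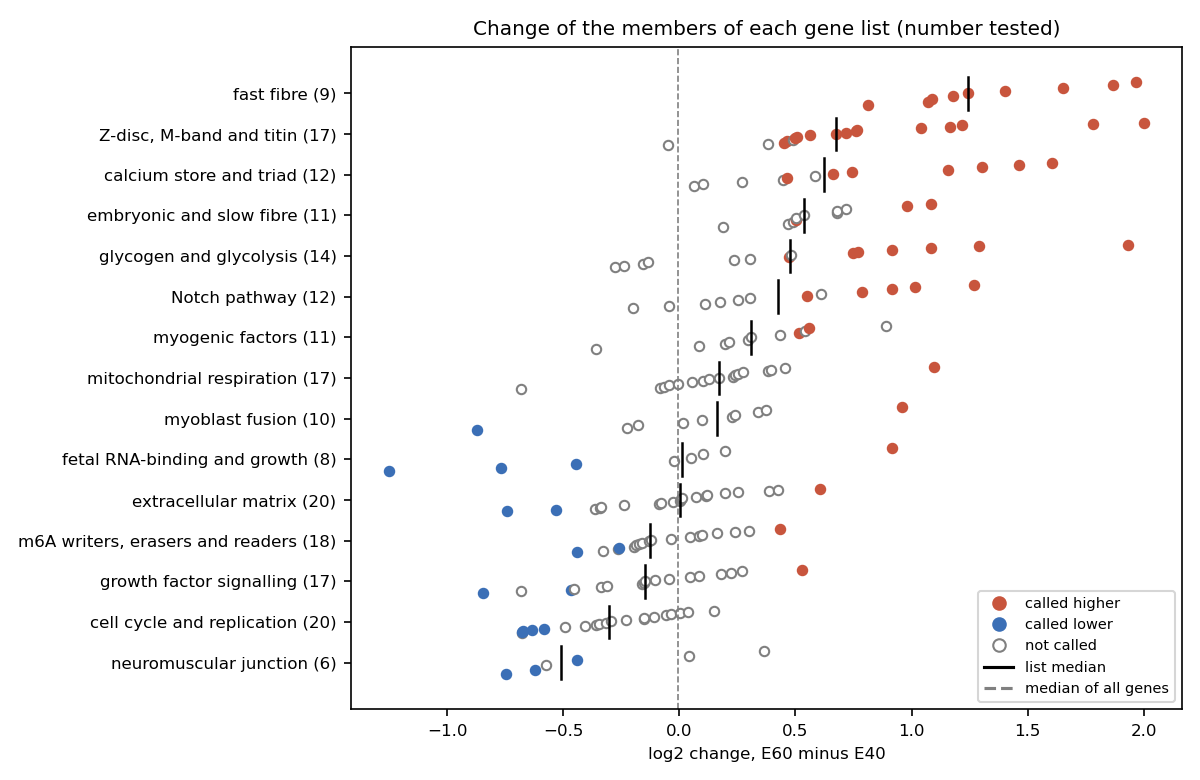
Each point is a tested member of a gene list, placed by its log2 change (x, E60 minus E40), with filled red and blue points for members called higher and lower and open points for the rest. Black bars mark list medians, which run from 1.24 for the fast-fibre list to -0.51 for the neuromuscular-junction list, and the dashed line marks the median of all genes at -0.01.

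Enzymes of glycogen and sugar breakdown rose in part. Of 14 tested, 7 rose and none fell, with a median of 0.48. Without E40 replicate 2, PGK1, phosphoglycerate kinase, was also called lower, by -0.37 on the log2 scale (limma adjusted p 0.0325). ALDOA, aldolase A, was at 18.2, 11.6 and 23.7 and then at 47.6, 88.7 and 75.2 (log2 change 1.93, SE 0.33, limma adjusted p 0.00255). ENO3, the enolase of muscle, was at 45.6, 36.7 and 47.3 and then at 95.6, 100.4 and 125 (log2 change 1.29, SE 0.17, limma adjusted p 0.000444), while ENO1, the general isoform, had a change of -0.16 (0.19 as deposited, limma adjusted p 0.577 after scaling). PYGM, muscle glycogen phosphorylase, rose by 1.08, PGAM2, muscle phosphoglycerate mutase, by 0.92, GAPDH by 0.77, GYS1, muscle glycogen synthase, by 0.75 and PFKM, muscle phosphofructokinase, by 0.47. Among respiratory genes 1 of 17 rose, near the 4.64% of all genes, none fell and the median was 0.17. That gene was PPARGC1A, a coactivator of mitochondrial genes, at 1.61, 1.5 and 1.62 and then at 3.55, 7.29 and 3.42 (log2 change 1.10, SE 0.23, limma adjusted p 0.01).

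Of the transcription factors that make muscle, 2 of 11 tested were called higher, against 4.64% of all genes. These were MYOG and MEF2D, none fell and the median was 0.31. MYOG, which drives terminal differentiation, was at 104, 104 and 98.2 and then at 115, 157 and 190 (log2 change 0.56, SE 0.15, limma adjusted p 0.0373), a call lost without E40 replicate 2. MEF2D rose by 0.52 (SE 0.11, limma adjusted p 0.0101). MYOD1, at 74.4 to 89.7 and then 103 to 135, had a change of 0.54 (limma adjusted p 0.0907), and MYF6 one of 0.89 (limma adjusted p 0.0849), in both cases with no overlap between stages. PAX7 and MYF5, factors of progenitors, had changes of 0.22 and 0.29 and overlapping values. Of 10 fusion and adhesion genes, ITGA7, the laminin-binding integrin of muscle, rose by 0.96 (limma adjusted p 0.00311). CDH2, N-cadherin, fell from 2.92, 2.37 and 3.45 to 1.30, 1.25 and 0.849 (log2 change -0.87, SE 0.13, limma adjusted p 0.00132). The fusogen MYMK was at 35.1, 26.9 and 32.6 and then at 32.4, 38.6 and 40.2 (log2 change 0.23, limma adjusted p 0.466).

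Notch signalling, which keeps progenitors undifferentiated and also shapes vessels, had 5 of 12 members higher and none lower, with a median of 0.43. Among its receptors and ligands, NOTCH1 was at 18.3, 27.5 and 16.8 and then at 32.9, 43.9 and 42.1 (log2 change 0.91, SE 0.19, limma adjusted p 0.0101). The ligands JAG1 and JAG2 rose by 0.55 and 0.79, the second losing its call without E40 replicate 2. Among its targets, HEYL was at 10.5, 15.8 and 9.98 and then at 18.8, 28.2 and 29.1 (log2 change 1.01, SE 0.21, limma adjusted p 0.00765), and HEY2 was at 0.264, 0.169 and 0.199 and then at 2.29, 1.74 and 1.75 (log2 change 1.27, SE 0.21, limma adjusted p 0.00229). HES1, another target, had a change of 0.25 (limma adjusted p 0.529). Since the RNA came from whole tissue, fewer cells of a type and less RNA per cell cannot be told apart, here or in any result of this comparison.

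At the neuromuscular junction some genes went the other way. Of 6 tested, 3 were lower, none was higher and the median was -0.51. CHRNA1, a subunit of the acetylcholine receptor, was at 55.5, 50.3 and 71.2 and then at 35.4, 40.4 and 37.3 (log2 change -0.62, SE 0.12, limma adjusted p 0.0048). MUSK, the receptor kinase that organises the junction, was at 12.7, 10.5 and 15.7 and then at 7.22, 7.27 and 7.20 (log2 change -0.75, SE 0.14, limma adjusted p 0.0049). LRP4, the receptor of agrin, fell by 0.44 and lost its call without E40 replicate 2. AGRN, COLQ and ACHE, with changes of -0.58, 0.04 and 0.36, were not called. CHRNE averaged under 1 TPM and was not tested, listed at 0 in all 3 E40 libraries and at 0, 0.726 and 2.29 at E60. As deposited 0 members of the list were called and the median was -0.18. CHRNB1, CHRND, CHRNG, RAPSN and DOK7 were not matched by symbol.

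Proliferation genes were lower in part. In the list of cell cycle and replication, 4 of 20 fell, none rose and the median was -0.30. TOP2A, topoisomerase of dividing cells, was at 33.8, 41.1 and 36.9 and then at 22.3, 23.4 and 25.2 (log2 change -0.63, SE 0.11, limma adjusted p 0.0031). BUB1B, of the spindle checkpoint, was at 5.18, 5.40 and 5.16 and then at 3.29, 2.75 and 2.69 (log2 change -0.68, SE 0.09, limma adjusted p 0.000577). CENPF of the kinetochore fell by 0.67 and MCM6 of the replicative helicase by 0.58, while MCM2 and MCM3 (-0.41 and -0.36) and MCM4, MCM5 and MCM7 (between -0.15 and -0.04) were not called, and MCM4, MCM5 and MCM7 were above 0 as deposited.

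The fetal RNA-binding family IGF2BP fell in all 3 members. IGF2BP1, which binds and stabilises growth-related transcripts and is a reader of m6A, was at 11.95, 14.7 and 12.2 and then at 3.98, 5.03 and 5.66 (log2 change -1.25, SE 0.15, limma adjusted p 0.000182). IGF2BP2 was at 20.5, 18.3 and 22.2 and then at 11.8, 11.06 and 11.6 (log2 change -0.77), and IGF2BP3 at 12.6, 11.5 and 12.6 and then at 8.33, 8.68 and 9.15 (log2 change -0.44). DLK1, an imprinted factor of fetal growth, went up from 209, 192 and 190 to 347, 405 and 365 (log2 change 0.91, SE 0.15, limma adjusted p 0.00236). The other 4 tested members of that list were not called. Of the 18 writers, erasers and readers tested, YTHDC1, the nuclear reader, rose by 0.43 (limma adjusted p 0.0398). YTHDF2, a reader that hastens decay, fell by 0.44 (limma adjusted p 0.0138) and METTL16, a further methyltransferase, by 0.26 (limma adjusted p 0.0465, lost without E40 replicate 2). METTL3 and METTL14 had changes of -0.13 and -0.12 (0.16 and 0.15 as deposited), and the list median was -0.13 (0.16 as deposited).

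Growth factor genes had 1 of 17 higher, near the 4.64% of all genes, and 2 lower, where 2.96% of all genes were lower. Their median was -0.15 (0.10 as deposited). MSTN, the brake on muscle growth myostatin, was at 34.8, 15.8 and 29.2 and then at 13.5, 12.5 and 14.98. Its stages came close to each other only in E40 replicate 2, and the log2 change was -0.85 (SE 0.24, limma adjusted p 0.0455). IGFBP5, which binds insulin-like growth factors, fell by 0.47 and TGFB1 rose by 0.53. In the matrix list 1 of 20 was higher, also near the 4.64%, and 2 were lower, and the median was 0.00. COL15A1 of the vessel and fibre basement membrane rose by 0.60 (limma adjusted p 0.00242), LAMA4, a laminin of vessels and early muscle, fell by 0.53 (limma adjusted p 0.00112) and LUM, the proteoglycan lumican, by 0.74 (limma adjusted p 0.0176).

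Markers of other cells in the tissue were followed beside these groups. All 7 tested markers of muscle fibres rose, and their summed level was 2507 to 2754 at E40 and 5516 to 8210 at E60. All 7 are also members of the fast-fibre list or the Z-disc and M-band list, so they are not separate evidence. Fibroblast markers summed to 2869 to 4704 and 3169 to 6317, with PDGFRA and LUM lower and 5 of 7 not called, and without E40 replicate 2 LUM was the 1 of 7 still called. Endothelial markers summed to 54.1 to 79.1 and 82.5 to 92.7, with KDR and TEK of 8 higher, both losing the call without E40 replicate 2, when TIE1 passed as the 1 of 8. Erythroid markers summed to 627 to 958 and 773 to 1678 and none of 5 was called, while none of 5 markers each of mural cells, of cartilage and tendon, and of macrophages was called. Neuronal markers summed to 20.9 to 26.4 and 6.44 to 16.0, with STMN2 lower and 1 other tested. Among Schwann cell markers FOXD3 was higher, at 8.03, 8.78 and 4.03 and then 13.9, 27.9 and 34.9 (log2 change 1.71, limma adjusted p 0.00886), and 3 were not called. Without E40 replicate 2, 2 of the 4 passed, SOX10 being the second. Adipocyte markers summed to 11.8 to 47.2 and 13.5 to 37.8, which overlap, with 1 of 3 tested higher and 2 not called. FABP4 of that list rose from values listed at 0, 1.41 and 0.276 to 2.86, 7.41 and 3.18. PPARG, not tested, was at 0.258 to 0.631 and then at 0.465 to 0.597, and ADIPOQ and PLIN1 were at most 0.125 scaled TPM in all 6 libraries. The part of such shifts in the muscle gene results was not tested.

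Set in the course of all 6 stages, the changes of E60 against E40 fell into different patterns. CKM averaged 6.497 ± 1.41 at E33, 97.7 ± 8.38 at E40 and 253 ± 42.4 at E50 (SD, n = 3 each, as in the values that follow). It then averaged 363 ± 71.8 at E60, 724 ± 56.9 at E70 and 1058 ± 243 at E95. EEF1A2 stood at 2.33 ± 1.01 at E40 and 4.48 ± 0.458 at E50, and at 49.4 ± 14.96 at E60, so its rise lay after E50. CA3 was already at 44.7 ± 2.60 at E50 and then differed little from E60 (71.8 ± 15.5) to E95 (74.6 ± 16.6). IGF2BP1 declined at each step from 22.3 ± 1.31 at E33 to 0.586 ± 0.252 at E95. MYH3 was highest at E60 (4479 ± 805) and E50 (4299.9 ± 833), whose values overlapped, and stood at 1058 ± 232 at E95, whereas MYH8 was at 3803 ± 151 at E95.

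**Figure D4:**
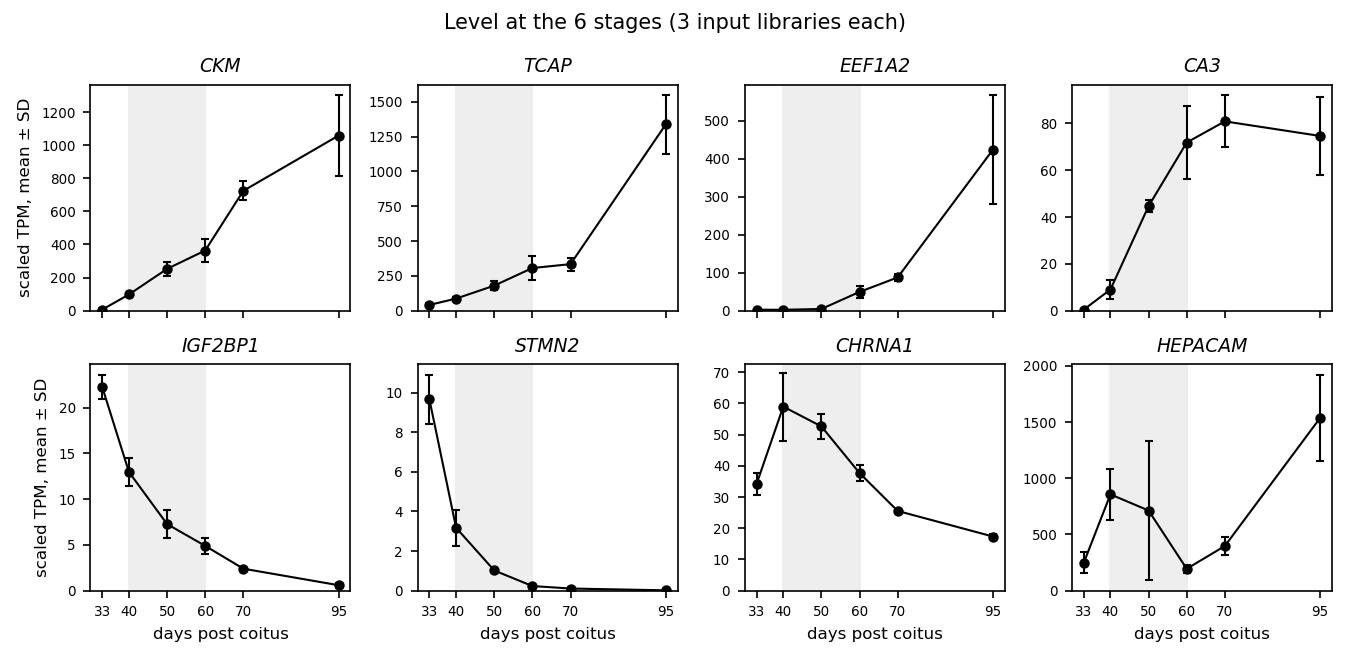
Lines join the mean scaled TPM (y) of 8 genes at 33, 40, 50, 60, 70 and 95 days post coitus (x), with bars for the SD of 3 input libraries and a grey band from E40 to E60. EEF1A2 rises after E50, CA3 rises before it, IGF2BP1 and STMN2 fall throughout, and HEPACAM is lower at E60 than at E40 and E95.

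The peak lists were set beside these levels, to ask which transcripts were marked at one stage and not the other. There were 4928 peaks in 3047 genes at E40 and 7545 peaks in 4278 genes at E60, with median fold enrichments over input of 4.23 and 4.06 as the authors' lists give them. Each list stands for its stage once, so counts of peaks have no replicates and no test. Among the genes tested, 2726 had a peak at both stages, 1458 at E60 only and 274 at E40 only. The shared genes were 90.9% of those with a peak at E40 and 65.2% of those with one at E60. By position, 85.1% of E40 peaks overlapped an E60 peak by at least 1 base and 54.2% of E60 peaks overlapped an E40 peak.

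These classes depended on how many peaks a list held. When the longer list was cut to as many peaks as the shorter one, by fold, 1014 genes had a peak at E60 only and 839 at E40 only. Most genes of either class also had a peak at another stage: of the 1458, 68.5% had one at E33 and 74.6% at E70, and of the 274, 75.5% had one at E33 and 67.9% at E50. The level of a gene bore on it too. With genes ranked by mean TPM into 4 equal groups, 8.53% of the lowest group had a peak at E60 and 4.67% at E40, against 53.3% and 42.7% of the highest. How far detection sets the classes was not tested.

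RNA change and peak class were compared gene by gene, with the shares of all genes called, 4.64% higher and 2.96% lower, as the background. Of the genes with a peak at E60 only, 108 (7.41%, Wilson 95% interval 6.17 to 8.87) were higher and 34 (2.33%) lower. Of those with a peak at E40 only, 12 (4.38%, 2.52 to 7.50) were higher and 20 (7.30%, 4.77 to 11.0) lower. Of those with both, 188 (6.90%) were higher and 92 (3.37%) lower, and of those with neither, 308 (3.50%) and 247 (2.80%). The median log2 change lay between -0.03 and 0.03 in all 4 classes. The order of the classes was not the same at every level. In the highest of those 4 groups 11.06% of E60-only genes were higher against 8.40% of genes with both, 8.43% with a peak at E40 only and 6.20% with neither, and 2.41% of E40-only genes were lower. In the lowest group 3.49% of E60-only genes were higher against 7.21% with both, and in the groups between 6.68% against 4.15% and 6.07% against 5.80%. Without E40 replicate 2, E60-only genes split 99 higher to 34 lower and E40-only genes 7 to 17. Genes with both then split 191 to 87 and those with neither 290 to 252. Intervals here cover counting error only, and genes are not independent replicates.

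Peaks of E60-only genes lay elsewhere on the transcript than shared ones. Their midpoint fell within 200 bases of the stop codon of the RefSeq transcript in 30.6% (28.5 to 32.8) of 1760 peaks, against 17.8% (16.9 to 18.9) of 5547 E60 peaks in genes with a peak at both stages. They lay elsewhere in the coding sequence in 41.0% against 64.5%, and in the 3′ UTR in 13.7% against 8.62%. E40 peaks of E40-only genes were near the stop codon in 23.0% (18.4 to 28.2) of 283, and E40 peaks of shared genes in 16.8%. Lengths and numbers differed as well: the median exonic length was 150 bases with 1.22 peaks per gene in E60-only genes, and 211 bases with 2.07 peaks per gene in shared genes at E60. The part of these in the placement was not tested.

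The letters within the peaks differed by class as well. GGACT, searched on the strand of the transcript in the central 100 bases, was in 25.3% (23.0 to 27.8) of 1235 E60 peaks of E60-only genes that were long enough. It was in 17.2% (16.1 to 18.2) of E60 peaks and 15.9% (14.8 to 17.1) of E40 peaks of shared genes, and in 10% (6.25 to 15.6) of 160 E40 peaks of E40-only genes. Windows of the same length in exons of tested genes outside all peaks held it in 8.69% of 381081. That share lies within the interval of the E40-only genes, whose peaks could thus not be told from such windows. The reversed word TCAGG was in 12.7%, 11.5%, 10.9% and 12.5% of the same 4 sets and in 11.2% of windows outside. Among E60-only genes the share with GGACT was 27.9% (20.2 to 37.2) of peaks in genes called higher and 25.3% (22.8 to 27.9) in genes not called, and 16.7% (6.68 to 35.9) of 24 peaks in genes called lower. These intervals overlapped. A match is a description of these letters, not a methylated site.

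**Figure D5:**
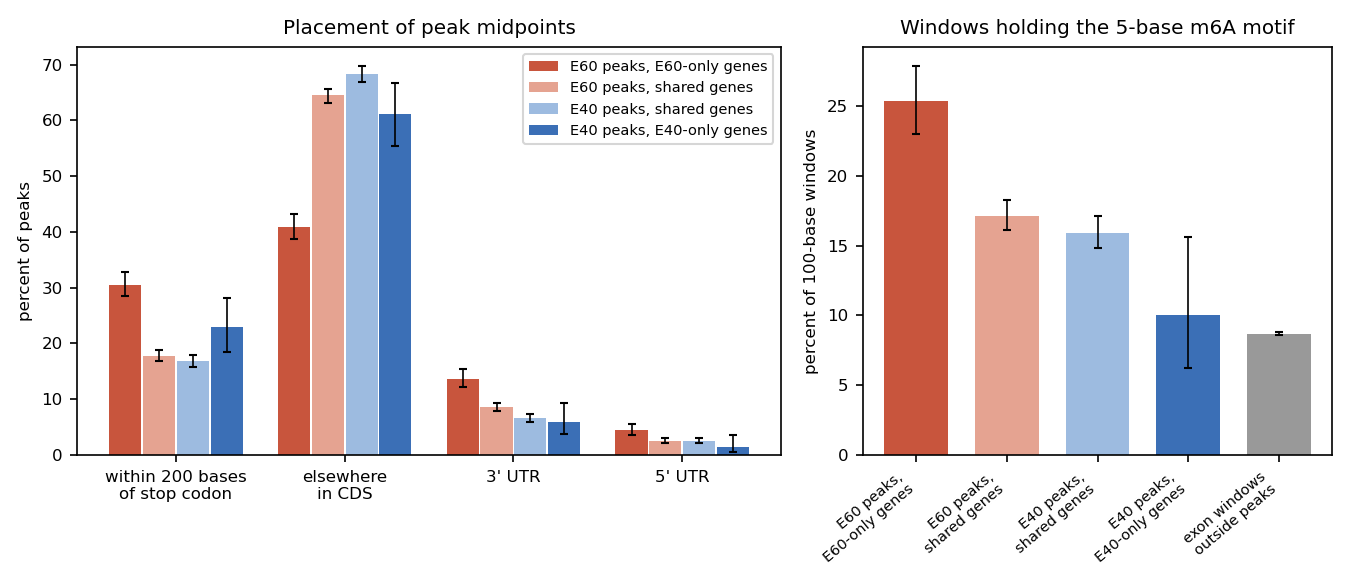
The left panel gives the percent of peaks (y) whose midpoint lay near the stop codon, elsewhere in the coding sequence, or in either UTR, for E60 and E40 peaks of genes with a peak at 1 stage only or at both. The right panel gives the percent of 100-base windows (y) that hold the motif, and bars are Wilson 95% intervals for counting error: E60 peaks of E60-only genes stand highest at 25.3% and exon windows outside peaks lowest at 8.69%.

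Single genes show what the classes hold. The 4 highest folds among E60-only genes were those of TENT5C (39.4, chromosome 4, 103136234 to 103136474, near the stop codon), SLN (36.6, 5′ UTR), DERPC (28.8, 3′ UTR) and ZFPM1 (27.2, near the stop codon). TENT5C, a cytoplasmic poly(A) polymerase, was also higher in RNA, at 2.36, 2.24 and 1.69 and then at 3.68, 3.73 and 4.497 (log2 change 0.69, limma adjusted p 0.0297). SLN, sarcolipin, an inhibitor of the calcium pump, was at 22.5, 21.7 and 23.3 and then at 39.8, 28.8 and 35.5 (log2 change 0.59, limma adjusted p 0.0299, lost without E40 replicate 2), while DERPC and ZFPM1 were not called. Both TENT5C and SLN also had a peak at E50, E70 and E95, and SLN at E33. The 4 highest folds among E40-only genes were those of HUNK (21.9, CDS), C15orf39 (21.6, CDS), MEGF6 (19.3, near the stop codon) and ITPKC (18.8, CDS), and none of these 4 was called in RNA.

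The genes printed at the opening can now be read with their levels. RRAD was at 7.14, 13.0 and 7.92 and then at 32.8, 56.7 and 26.7 (log2 change 1.91, SE 0.38, limma adjusted p 0.00688), with a peak of fold 5.37 at E60 and another at E70 alone of the other stages. CCDC69 was at 2.69, 3.17 and 3.06 and then at 9.16, 10.6 and 11.9 (log2 change 1.54, SE 0.13, limma adjusted p 1.24e-05). DYRK1B was at 32.9, 34.2 and 36.6 and then at 54.1, 58.4 and 55.9 (log2 change 0.69, limma adjusted p 0.00389). KITLG was at 4.52, 2.12 and 3.73 and then at 5.83, 6.73 and 6.28 (log2 change 0.75, limma adjusted p 0.0313, lost without E40 replicate 2). In the other direction, ZBTB16 was at 2.24, 3.19 and 2.77 and then at 1.48, 1.17 and 1.18 (log2 change -0.71, limma adjusted p 0.0109), and WNT5A was at 5.15, 8.43 and 4.49 and then at 2.17, 1.78 and 1.44 (log2 change -1.30, limma adjusted p 0.000541). IGF2BP1 had its peak at E33, E40 and E50 and SFRP1 at E33 and E40, and neither had one at E60 or later. The levels of both genes were lower at E60, as given above, and the part of level in these absences was not tested.

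Of all genes tested, 20.5% had a peak at both stages, 11% at E60 only, 2.06% at E40 only and 66.4% at neither, and the lists are set beside these shares. In the fast-fibre list 6 of 9 had both, CKM had one at E60 only (fold 3.68) and ACTA1 and ACTN3 had neither. In the Z-disc and M-band list 10 of 17 had both, TCAP (4.62), MYOZ1 (3.85) and MYOM1 (2.56) had one at E60 only, and ACTN2 (2.08) and MYOM3 (1.94) at E40 only. MYOD1 (3.51, chromosome 2, 41424274 to 41424393) and MYMK (6.45) had a peak at E60 and not at E40, with RNA that was not called. The peaks of CKM and MYOD1 lay outside RefSeq coding transcripts, 4079 bases from CKM and 38 bases from MYOD1, the genes the authors' list names for them. The CKM peak held no site of the form searched. Both stages had a peak in 5 of 11 myogenic factors, 4 of 10 fusion genes and 1 of 6 genes of the neuromuscular junction. Of 17 respiratory genes 15 had no peak at either stage. So had 14 of 20 cell-cycle genes and 9 of 14 of glycolysis, which is near the share of all genes. In the matrix list 15 of 20 had a peak at both, and 12 of 18 of the m6A genes did, RBM15 with a highest fold of 4.24 at E40 and 38.5 at E60.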

How the data were processed

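The authors deposited TPM per gene for each input library and 1 m6A peak list per stage, with a fold enrichment (ratio) per peak, per the file headers. The submitters' processing notes name Trimmomatic, HISAT2 and Sscrofa11.1; the quantifier, the peak caller and its threshold, and whether replicates were pooled are not given in the sources used here. TPM was divided by a median-ratio factor per library. Genes averaging 1 TPM or more across the 6 libraries compared were tested on log2(scaled TPM + 1) with limma 3.58.1 in R 4.3.3, with 1 mean per stage over all 18 muscle input libraries (12 residual degrees of freedom), trended empirical Bayes and Benjamini-Hochberg adjustment (adjusted p under 0.05). The fit was tested on simulated data. The members, gene lists and tests were chosen with earlier results of these data known. Named genes are the 12 largest rises and 12 largest falls with a symbol, an adjusted p under 0.05 and stages that do not overlap, members of the lists, the 4 highest-fold genes of each single-stage class, any of the first 24 with a peak at 1 stage, and genes chosen after their values were seen where stated. Epidermal genes were listed after their values were seen. Symbols were paired with 10719 of the genes tested. Peaks were placed on 20663 RefSeq coding genes (Python 3.11.15, pysam 0.24.0, bedtools 2.31.1). No peak ran past a chromosome end. Of 10270 peaks with a symbol that lay at a RefSeq coding gene, 93.7% lay at the gene of the same symbol, which was tried first where genes overlapped. Intervals are Wilson 95%.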

Additional observations from a re-analysis of the deposited data

How the results depend on the processing

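The number of genes called at E60 against E40 was 1009. It was 51 with TPM as deposited, 48 as deposited and without E40 replicate 2 (22 higher, 26 lower, chosen after seeing the data), 646 after leaving the 2 most abundant genes out of the TPM sums, 641 with a filter at a mean of 5 TPM (7969 genes tested), 336 with only the 6 libraries compared, and 540 to 993 with 1 library of E40 or E60 left out. It stayed within 1.5 times with quantile normalization (1204, 55.1% higher against 61.1%), a pseudocount of 0.1 (924), no filter (1127) and without E40 replicate 2 and E50 replicate 3 together (1089). The labels share replicate numbers, and deviations of same-numbered libraries correlated by 0.07, 0.05 and -0.08. These values show no pairing over the genes as a whole, but cannot exclude pairing that touched some genes. With the replicate block 874 genes were called, 839 of them among the 1009. Of 118 genes followed by name, 102 were called, and 0 changed sign where called. Of the 102 called, 81 lost the call as deposited, 49 with only the 6 libraries, 15 without E40 replicate 2 and 11 with the replicate block. With peaks above the median fold of each list, genes with a peak at E40 only numbered 430 and at both 1401; with as many peaks in both lists E40-only genes numbered 839. The cause of these moves was not tested, beyond fewer genes or libraries entering a fit. Depth is unknown, so small changes of low genes cannot be weighed by it.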
